A study of Mus musculus with 18 samples.

Results

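The resting/proliferating zone is the end of the growth plate where chondrocytes are held in reserve and then divide in columns. It was compared between tibiae cultured with C-type natriuretic peptide (CNP) and tibiae cultured with vehicle, on 6 of the 18 arrays of the series. Members were the arrays titled for this zone, 3 with CNP and 3 with vehicle, each set numbered replicates 2, 3 and 4. All bones came from CD1 mouse embryos of stage E15.5, of both sexes, and were kept in minimal medium for 6 days. CNP (1e-06 M) or the vehicle (bovine serum albumin in hydrochloric acid, 1.0 mM in the labels) was added on days 1, 3 and 5. On day 6 the zones were separated under a microscope, and pieces of 1 zone from about 24 bones were pooled, so that an array reads a pool of embryos and no single bone. RNA was read on Affymetrix MOE430_2 arrays, on which 1 or more probe sets report each gene. The hypertrophic and the mineralized piece of the same pools gave the other 12 arrays. For vehicle replicate 4 the treatment field names CNP while the title names vehicle, and the title was followed.

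CNP is a secreted peptide that lengthens bones formed from cartilage. It binds the receptor guanylyl cyclase encoded by Npr2, the cyclic GMP made there activates protein kinases such as those encoded by Prkg1 and Prkg2, and Npr3 encodes a receptor that removes the peptide. In the growth plate, resting cells feed a column of dividing cells, which leave the cell cycle, enlarge as hypertrophic chondrocytes under factors such as MEF2C and RUNX2, and finally mineralize their matrix. The title of the series names p38 MAP kinase in endochondral bone formation, and the comparison of this zone asks which transcripts CNP changes where the cells divide.

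Signals were normalized between arrays and tested as log2(signal + 16). Differences are log2 CNP minus vehicle with the standard error of the fit (n = 3 arrays per group), and folds are on that scale, which understates changes of dim genes. The adjusted p is that of limma over 27022 probe sets, and a probe set was called at an adjusted p under 0.05. Arrays of the same number deviated together in each of the 3 pairs, so the adjusted p of a fit with the number as a block, here the blocked adjusted p, is given wherever the 2 fits part. Standard errors of single differences are those of the fit without a block. Nothing states that the numbered cultures came from separate litters, and p-values measure the spread between these pools.

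The CNP arrays of replicates 2 and 4 stood apart from the others before any gene was compared. The actin ratio (the probe set at the 3' end over that at the 5' end), which rises as RNA degrades, was 3.05, 2.44 and 2.62 with vehicle and 4.76, 2.56 and 4.85 with CNP in replicates 2, 3 and 4. The means were 2.70 ± 0.311 and 4.06 ± 1.30 (SD, n = 3), and an exact two-sided permutation test gave p = 0.3, where 0.1 is the smallest that 3 against 3 can give. On the first principal component of the 6 arrays, which held 38.5% of the variance, CNP replicates 2 and 4 scored 56.0 and 25.5, CNP replicate 3 scored -21.9, and the vehicle arrays scored between -46.9 and -1.6. Replicate 3 was hybridized on a day of its own, and both arrays of that pair had near-equal actin ratios. Medians of the replicate 3 pair are therefore given beside some of the gene groups below.

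Of the 7 markers of this zone, Ucma and Sfrp5 set the dissected piece apart from both others. In vehicle arrays Ucma, a secreted protein of resting and early chondrocytes, had a mean signal of 5582 ± 480.2 (SD, n = 3) against 1070 ± 266.2 in the hypertrophic and 53.8 ± 16.1 in the mineralized piece. Sfrp5, a secreted WNT antagonist, had 1503 ± 274.5 against 117 ± 22.7 and 80.4 ± 50.1. Ihh, the hedgehog ligand of prehypertrophic cells, had 233 ± 68.8 here and 1591 ± 505.7 in the hypertrophic piece, and Mmp9, a protease of osteoclasts, had 159 ± 57.0 here and 7955 ± 551.2 in the mineralized piece. Col2a1 (7722 here and 8808 in the hypertrophic piece) and Acan (5760.0 and 7080.0) were not higher here, Matn1, a cartilage matrilin, was about equal (7998 and 7769), and Mki67 was as high in the mineralized piece (1911 and 2080.0). Markers of the neighbouring zones were present: the hypertrophic markers Panx3, a pannexin channel, and Mef2c had means of 6347 and 3362 here against 8091 and 6282 in the hypertrophic piece. Col10a1, the collagen of hypertrophic cartilage, had signals of 2314, 436 and 940 with vehicle and 434, 547 and 1436 with CNP in replicates 2, 3 and 4. Those of Mmp13, a collagenase of late hypertrophic cells, were 2229, 750 and 931 against 972, 717 and 1010. Vehicle replicate 2 was the highest for both genes, and the groups overlapped. The summed signal of 7 markers of this zone ran from 28047 to 34310 with vehicle and from 23824 to 31733 with CNP. The sum of 5 hypertrophic markers ran from 10827 to 14103 and from 8271 to 12317, against 25009 to 30736 in the hypertrophic vehicle arrays. The sum of 5 mineralized-zone markers ran from 2717 to 5364 with vehicle and from 1827 to 2627 with CNP, without overlap. In the mineralized piece it ran from 28865 to 33772. Spp1 and Bglap, also planned as markers of that zone, had no singly named probe set and are not in the sum. Among the 5, the groups were apart for Ibsp alone (1499 to 2496 with vehicle and 606 to 1221 with CNP). Those of Mmp13, Mmp9, Acp5 and Dmp1 overlapped. Of these 5, Dmp1, a phosphoprotein of osteocytes, was near 0, with means of 21.9 ± 19.2 and 6.78 ± 10.0.

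**Figure D1:**
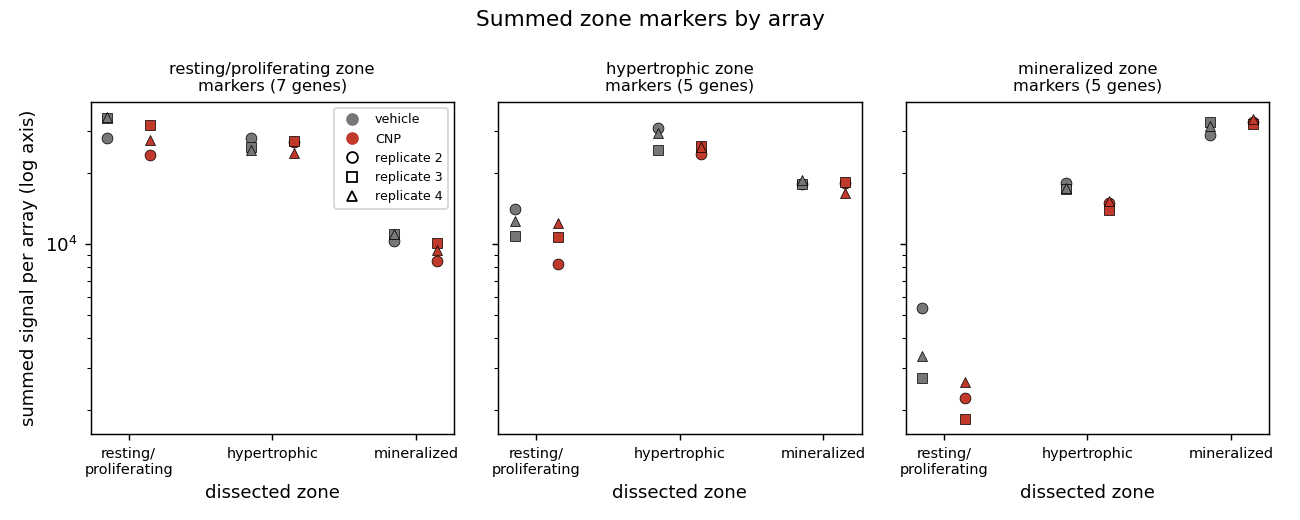
Summed normalized signal (log axis) of markers of the 3 zones in each of the 18 arrays, by dissected zone (x axis), with vehicle in grey, CNP in red and the replicate number as the symbol. The sums of resting/proliferating markers in that zone (28047 to 34310 with vehicle) reach down to those of the hypertrophic zone (24784 to 28088), while the sums of mineralized-zone markers there are between 2717 and 5364 with vehicle and between 1827 and 2627 with CNP.

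Few transcripts passed the test in this zone. Of 27022 probe sets, 7 were called (0.0259%), 3 higher (0.0111%) and 4 lower (0.0148%) with CNP, and 4 of the 7 differed at least 2-fold. They stand for 5 named genes and 1 probe set without a gene name. With the replicate number as a block 56 were called (0.207%), 18 higher (0.0666%) and 38 lower (0.141%), of which 6 were among the 7. These 56 include 42 named genes, 12 higher and 30 lower. Before adjustment, 1585 probe sets (5.87%) were higher and 1689 (6.25%) lower at p under 0.05, in all 3274 (12.1%). The median of all probe sets moved by at most 0.044 (log2) under any scaling. The number of calls hung on single arrays. Without CNP replicate 3 there were 912 (319 rises and 593 falls). There were 4 without CNP replicate 2, 0 without vehicle replicate 2 (3350 probe sets still at an unadjusted p under 0.05) and 2 without vehicle replicate 3. With the block it was 283 without CNP replicate 3, 284 without vehicle replicate 3, 5 without CNP or vehicle replicate 2, and 3 without CNP or vehicle replicate 4. In the blocked fit, an array whose partner is left out no longer bears on the difference, so these are checks of the 3 pairs. Counting the array with the conflicting field as CNP left 3 calls, none of them among the 7, and a fit of these 6 arrays alone called 0 (2329 at an unadjusted p under 0.05). Each of the 56 probe sets called with the block kept its sign under each alternative in which it was tested. Several alternatives change only the estimate of the spread, so the sign could not change there. Of the 56, 51 were called without CNP replicate 3, 1 with median centring, and 0 without replicate 2 or without replicate 4.

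**Figure D2:**
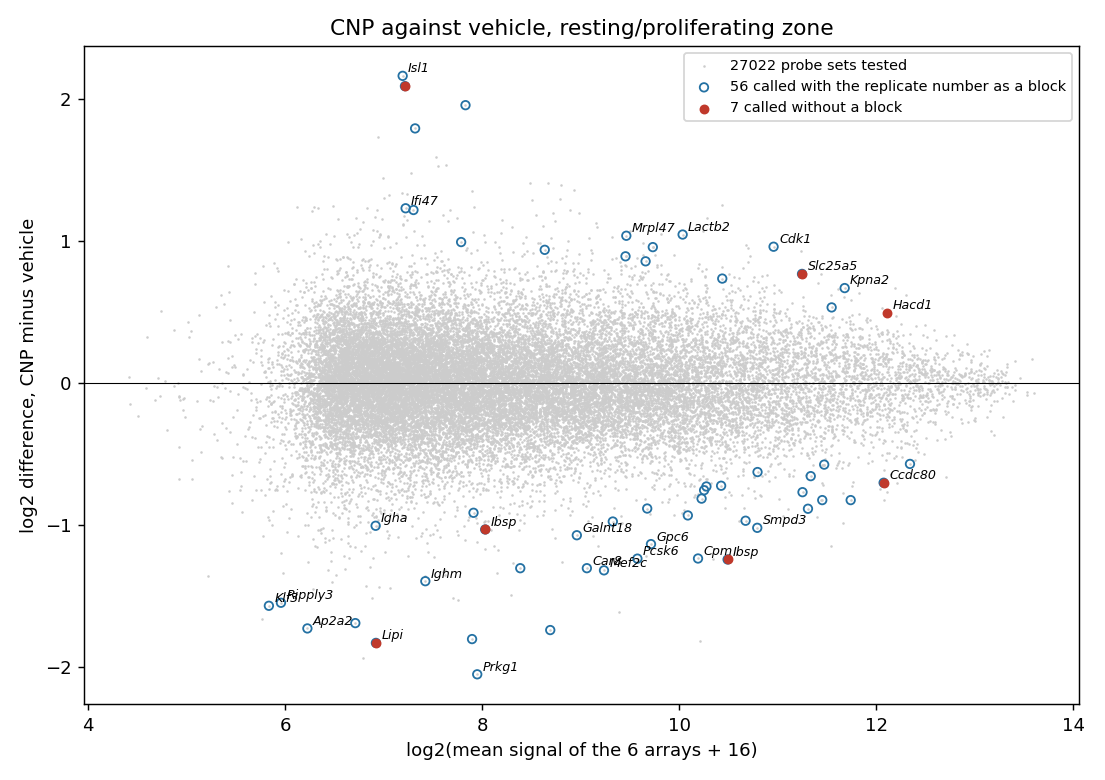
Log2 difference between CNP and vehicle (y axis) against the mean signal of the 6 resting/proliferating arrays (x axis, log2) for 27022 probe sets in grey. Red points are the 7 called without a block and blue circles the 56 called with the replicate number as a block, with named genes labelled where they changed over 2-fold or are discussed; Prkg1 and Lipi lie lowest among the labelled genes, and Isl1 highest.

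The calls that fell with CNP included Ibsp, Lipi and Ccdc80. Ibsp encodes bone sialoprotein, an acidic matrix protein of mineralizing cartilage and bone. Its signals were 2496, 1499 and 1990 in vehicle replicates 2, 3 and 4 and 736, 606 and 1221 in the matching CNP arrays. Each CNP value lay below each vehicle value, and Ibsp fell by 1.24 ± 0.18, or 2.36-fold lower (adjusted p = 0.0198, blocked adjusted p = 0.0101). A second probe set of the gene fell by 1.03 ± 0.17 (adjusted p = 0.0462). Without CNP replicate 2 or vehicle replicate 2 the first probe set was no longer called (highest adjusted p = 0.0976), with differences between -1.53 and -1.03 whichever array was left out. Ibsp is one of the mineralized-zone markers above, with a mean vehicle signal of 7164 ± 311.8 in the mineralized piece, and a smaller piece of a later zone and a lower level per cell cannot be told apart in these bulk samples. For the genes below, too, a change in the cells that the piece held and a change in level per cell cannot be told apart.

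Lipi encodes a phospholipase of the pancreatic lipase family. Its signals were 173, 144 and 195 with vehicle and 63.5, 17.9 and 37.1 with CNP. The groups did not overlap, and the fall of 1.83 ± 0.29 was the largest of the named calls without a block (3.55-fold lower, adjusted p = 0.0321, blocked adjusted p = 0.0126). Leaving out either CNP replicate 4 or any one vehicle array ended the call (highest adjusted p = 0.0858). Ccdc80, which encodes a secreted protein bound to extracellular matrix, was one of the brighter genes of the zone. Its signals were 5489, 4731 and 5755 with vehicle and 2786, 3593 and 3461 with CNP, without overlap. It fell by 0.70 ± 0.09 (1.62-fold lower, adjusted p = 0.00862, blocked adjusted p = 0.0202). Without a block it lost its call only without vehicle replicate 2 (adjusted p = 0.0858) among the single arrays. With the block the call was kept in only 2 of the fits without 1 array (highest blocked adjusted p = 0.151). Without 1 replicate number the adjusted p of the fit without a block reached 0.542. A dimmer probe set of Ccdc80 differed by -0.68 ± 0.35 and was not called (adjusted p = 0.46).

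Further genes fell only in the fit with the replicate number as a block. Smpd3 encodes a neutral sphingomyelinase whose loss in mice disturbs mineralization of cartilage and bone. Its signals were 2014, 2435 and 2509 with vehicle and 685, 1499 and 1409 with CNP, a fall of 1.02 ± 0.20 (adjusted p = 0.0606, blocked adjusted p = 0.0202), and its other probe sets differed by -0.87 and -1.09. Mef2c, which encodes a transcription factor required for chondrocyte hypertrophy, had signals of 868, 826 and 784 with vehicle and 221, 561 and 265 with CNP on the probe set that was called (fell by 1.32 ± 0.23, adjusted p = 0.0581, blocked adjusted p = 0.0477). Its brightest probe set differed by -0.57 ± 0.12 (blocked adjusted p = 0.0577), and the other 3 by -0.54 to -0.84. Pcsk6, the proprotein convertase PACE4, had signals of 807, 1094 and 1235 against 272, 599 and 478 and fell by 1.24 ± 0.24 (adjusted p = 0.0673, blocked adjusted p = 0.0101). For these 3 genes each CNP array lay below each vehicle array, and CNP replicate 2 was the lowest.

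Gpc6, Cpm and Car8 also fell with the block. Gpc6, a glypican that carries heparan sulfate, had signals of 1016, 1161 and 1174 with vehicle and 386, 812 and 396 with CNP (fell by 1.13 ± 0.24, blocked adjusted p = 0.0477). Cpm, a membrane carboxypeptidase, had 1328, 1931 and 1512 against 451, 1153 and 547 (fell by 1.23 ± 0.28, blocked adjusted p = 0.0447). A second probe set of Cpm differed by -1.82 ± 0.44 (blocked adjusted p = 0.0695). Car8, a carbonic anhydrase-related protein without the enzyme's activity, had 640, 704 and 861 against 170, 352 and 387 (fell by 1.30 ± 0.24, blocked adjusted p = 0.0227), while its 2 dimmer probe sets differed by 0.22 and -0.59. The CNP values of Gpc6, Cpm and Car8 did not overlap with the vehicle values.

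Of the other named falls with the block, Prkg1 encodes cyclic GMP-dependent protein kinase I, a direct target of the second messenger that the CNP receptor makes. The probe set that was called had signals of 128, 628 and 273 with vehicle and 29.1, 321 and 8.92 with CNP (fell by 2.05 ± 0.78, adjusted p = 0.301, blocked adjusted p = 0.0477), and the groups overlapped although CNP was lower in each pair. The brightest Prkg1 probe set differed by -0.68 ± 0.14 and missed the threshold in both fits (adjusted p = 0.0692, blocked adjusted p = 0.0606). Galnt18, a glycosyltransferase that starts mucin-type sugar chains, fell by 1.07 ± 0.36 (blocked adjusted p = 0.0477), also with overlapping groups. Ap2a2, a subunit of a clathrin adaptor, fell by 1.73 ± 0.33, the repressor gene Klf3 by 1.57 ± 0.31 and Ripply3, a transcriptional corepressor, by 1.55 ± 0.40, with blocked adjusted p-values of 0.0447, 0.0489 and 0.0477. These 3 rest on dim probe sets, with CNP signals of at most 51.8, 24.1 and 22.5. The 2 brighter probe sets of Ap2a2 differed by 0.03 and -0.42. The other 4 probe sets of Klf3, all brighter, differed by -0.03 to 0.36. Probe sets of the immunoglobulin heavy chains Ighm and Igha, called with the block, fell by 1.39 ± 0.27 and 1.00 ± 0.37. Other probe sets of both genes differed in either direction. The other genes that fell with the block did so by 0.57 to 0.97 on the log2 scale.

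Among the rises, Slc25a5 encodes a mitochondrial ADP/ATP carrier. Its called probe set had signals of 1525, 1776 and 2044 with vehicle and 2789, 2795 and 3566 with CNP, without overlap, and rose by 0.77 ± 0.13 (1.71-fold, adjusted p = 0.0462, blocked adjusted p = 0.0202). The design marks this probe set as one that may cross-hybridize, and 7 other Slc25a5 probe sets differed by 0.19 to 0.46 without a call. Hacd1, an enzyme that lengthens very long-chain fatty acids, had signals of 3390, 4008 and 3585 against 5316, 4728 and 5455 and rose by 0.50 ± 0.08 (adjusted p = 0.0462), but missed the threshold with the block (blocked adjusted p = 0.0539), and its other probe set differed by 0.23. Both calls were lost without CNP replicate 2, without CNP replicate 4, and without vehicle replicate 2 or 3 (highest adjusted p = 0.192), and that of Hacd1 also without vehicle replicate 4. 1 called probe set has no gene name. It had signals of 31.3, 27.3 and 68.2 against 231, 185 and 253 and rose by 2.09 ± 0.28 (adjusted p = 0.00862, blocked adjusted p = 0.00666). It lost its call without vehicle replicate 2 or 3 (highest adjusted p = 0.0858). With the block it kept the call whichever pair lost an array (highest blocked adjusted p = 0.043). In the fit without a block, leaving out 1 replicate number raised the adjusted p to as much as 0.295.

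The other named rises were called with the block alone. Mrpl47, a protein of the large mitochondrial ribosomal subunit, had signals of 414, 455 and 456 with vehicle and 1174, 758 and 885 with CNP and rose by 1.04 ± 0.18 (2.06-fold, adjusted p = 0.0509, blocked adjusted p = 0.048). Lactb2, a mitochondrial RNA-cleaving enzyme, had 800, 599 and 599 against 1597, 1075 and 1532 and rose by 1.05 ± 0.20 (blocked adjusted p = 0.0477). Fastkd2, a mitochondrial RNA-binding protein, rose by 0.94 ± 0.21, and Cycs, cytochrome c, by 0.53 ± 0.15, both with a blocked adjusted p of 0.0477. On the called probe sets of these 4 genes the groups were apart. That of Fastkd2, like that of Slc25a5, is marked as one that may cross-hybridize. Of the 12 named genes called higher with the block, only 6 were called by their brightest probe set. Outside mitochondria, Gmfb, a regulator of the actin cytoskeleton, rose by 0.89 ± 0.18, Bbip1, a subunit of the ciliary BBSome, by 0.86 ± 0.21, and the unstudied transcript B230219D22Rik by 0.99 ± 0.21 (blocked adjusted p = 0.0477, 0.0489 and 0.0477). The brightest probe sets of these 3 genes differed by 0.16, -0.26 and -0.05 and were not called. Isl1, a LIM-homeodomain transcription factor, rose by 2.17 ± 0.51 (blocked adjusted p = 0.0477) from dim signals of 15.3, 89.2 and 17.3 to 98.7, 240 and 322.

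**Figure D3:**
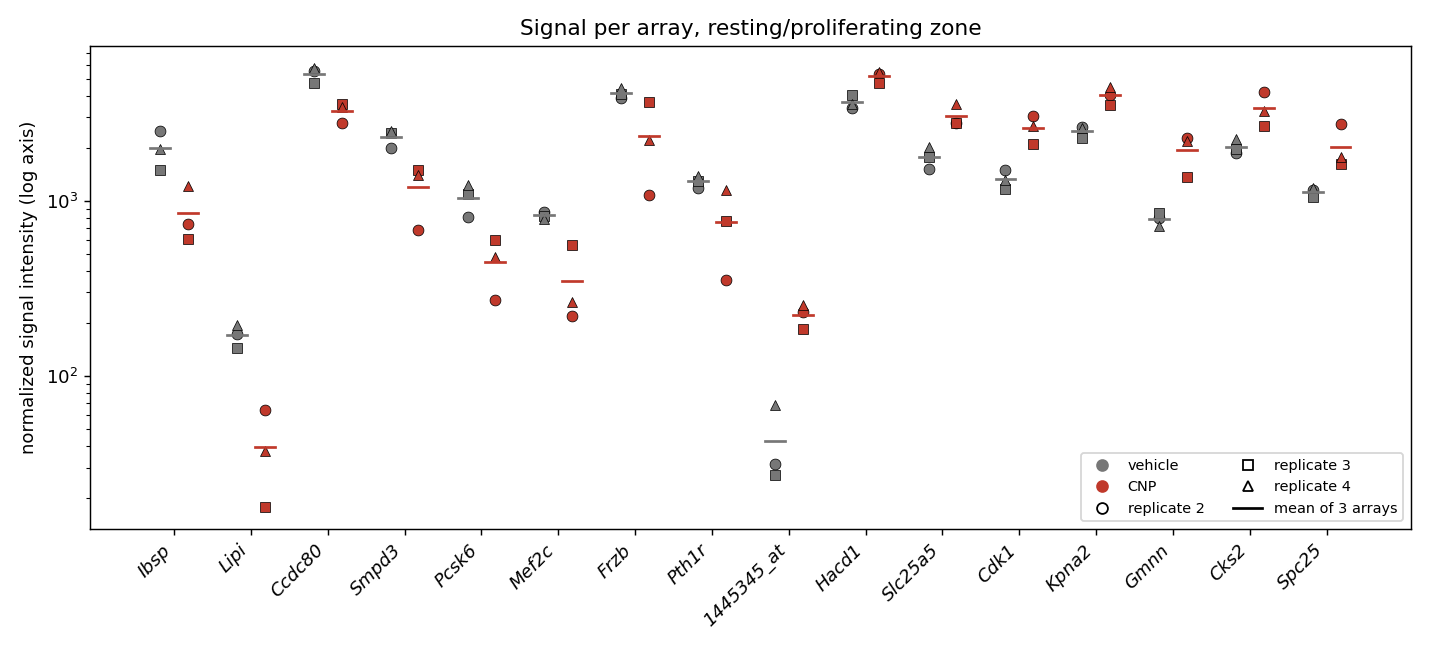
Normalized signal (log axis) of 16 probe sets in each resting/proliferating array, with vehicle in grey, CNP in red, the replicate number as the symbol and a line at the mean of 3 arrays. The first 8 are lower and the last 8 higher with CNP, without overlap; Frzb, Pth1r, Gmnn, Cks2 and Spc25 were not called in either fit.

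Of the mitosis genes, Cdk1 rose with CNP. Cdk1, the kinase that drives entry into mitosis, had signals of 1499.9, 1173 and 1312 with vehicle and 3074, 2104 and 2685 with CNP. The lowest CNP array was above the highest vehicle array. Cdk1 rose by 0.96 ± 0.18 and was called only with the block (1.95-fold, adjusted p = 0.0597, blocked adjusted p = 0.0202). Without 1 array, its blocked call was kept only where the array left out was of replicate 3. Of 38 mitosis and spindle genes measured, Cdk1 was the only one called, against 0.0453% of genes called higher with the block, and 35 of 38 had a difference above 0. In 14 of 38 each CNP array lay above each vehicle array, where 7.56% of the 13247 genes did so, and in none did each lie below (7.28% of genes). At an unadjusted p under 0.05, 13 were higher and 0 lower, against 6.28% and 7.31% of genes. The median difference was 0.38, against -0.01 over all genes.

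Other members of the mitosis list, chosen by the smallest p or as known markers, were not called. Spc25, a subunit of the NDC80 complex that binds microtubules to kinetochores, had signals of 1148, 1057 and 1187 with vehicle and 2747, 1617 and 1774 with CNP (0.81 ± 0.18, blocked adjusted p = 0.0851). Mad2l1, of the spindle checkpoint, had 1339, 1235 and 1206 against 2733, 1517 and 2316 (0.75 ± 0.21, blocked adjusted p = 0.105). Cks2, a small binding partner of CDK1 read by a probe set that may match related transcripts, had 1879, 1973 and 2250.2 against 4185, 2674 and 3278 (0.71 ± 0.16, blocked adjusted p = 0.0958). Top2a, the topoisomerase of dividing cells, had 1668, 1527 and 1789 against 2243, 2210.4 and 2448 (0.47 ± 0.23), whereas Mki67, the proliferation marker Ki-67, overlapped (0.31 ± 0.23), and so did the mitotic kinases Aurka (-0.14 ± 0.24) and Plk1 (-0.11 ± 0.26). In Cdk1, Spc25, Mad2l1 and Cks2, CNP replicate 2 was the highest array.

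Of the DNA replication genes the largest difference was in Gmnn, geminin, which keeps replication origins from being licensed again and marks cells from S phase to mitosis. Its signals were 804, 851 and 719 with vehicle and 2303, 1366 and 2191 with CNP, a 2.38-fold difference (1.25 ± 0.23) that missed the threshold in both fits (adjusted p = 0.0581, blocked adjusted p = 0.052). Ccne2, cyclin E2, had 1068, 1137 and 1226 against 2766, 1552 and 2098 (0.86 ± 0.20, blocked adjusted p = 0.0916). Rfc4, of the clamp loader, had 561, 471 and 489 against 1320, 665 and 960 (0.88 ± 0.25). Cdc45 and Gins2, which activate the replicative helicase, differed by 0.62 ± 0.19 and 0.60 ± 0.23. The helicase subunits themselves, Mcm2 to Mcm7, differed by -0.24 to 0.27 with overlapping groups, and so did Pcna, the sliding clamp (0.08 ± 0.14). Of 36 genes none was called in either fit, 10 (27.8%, against 7.56% of genes) had CNP arrays above all vehicle arrays and 0 below (7.28% of genes), and the median was 0.20.

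In the pair of replicate 3, whose 2 actin ratios were alike, the median difference was 0.40 for mitosis and 0.20 for DNA replication genes. It was 0.19 and 0.23 in the pair of replicate 2, and 0.46 and 0.23 in the pair of replicate 4. Both medians stayed above 0 under each alternative, from 0.28 to 0.49 for mitosis and from 0.13 to 0.25 for replication. Replicate 3 is a single pair, hybridized on a day of its own. The part of RNA integrity, in single genes or in the lists, was not tested.

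Of 20 D cyclins and cell cycle brakes, none was called by its brightest probe set, and the median was -0.03. Another probe set of Btg1, a member of the list, was called lower with the block. Its signals were 2982, 3615 and 2744 with vehicle and 1645, 2796 and 1634 with CNP, with overlapping groups (fell by 0.65 ± 0.17, adjusted p = 0.159, blocked adjusted p = 0.0488). Cdkn2b, an inhibitor of CDK4 and CDK6, had signals of 151, 172 and 196 with vehicle and 304, 253 and 291 with CNP (0.66 ± 0.16, blocked adjusted p = 0.125). Rbl2, the retinoblastoma relative p130, had 232, 199.99 and 213 against 101, 164 and 85.5 (-0.84 ± 0.21, blocked adjusted p = 0.127). Ccnd3, cyclin D3, had 2072, 1856 and 1679.6 against 1003, 1612 and 1007 (-0.65 ± 0.19), and Cdkn1c, an inhibitor highly expressed in chondrocytes leaving the cycle, differed by -0.26 ± 0.11.

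The promoters of Cdk1, Spc25 and Cks2, the 3 mitosis genes with the smallest p, and of Kpna2, which was called with the block, are printed to show the motifs counted over the lists. Gmnn and Ccne2 are not shown. Each is the 300-base RefSeq window around the gene's start (build GRCm38.p6), 5′ to 3′ on the gene's strand. Capitals mark 3 motifs on either strand: the cell cycle homology region TTTGAA, the CCAAT box, and E2F sites of the forms TTTCCCGC, TTTCGCGC, TTTGCCGC or TTTGGCGC. The first 2 mark genes expressed in G2 and mitosis in textbook accounts, and E2F sites those of S phase.
Cdk1, chr10:69352863-69353162, minus strand: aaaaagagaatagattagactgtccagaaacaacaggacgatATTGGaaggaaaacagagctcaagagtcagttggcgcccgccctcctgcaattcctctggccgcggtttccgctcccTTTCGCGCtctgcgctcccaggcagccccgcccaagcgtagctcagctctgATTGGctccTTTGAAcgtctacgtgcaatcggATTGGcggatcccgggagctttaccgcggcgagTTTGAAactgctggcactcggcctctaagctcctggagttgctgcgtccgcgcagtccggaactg
Cks2, chr13:51644982-51645281, plus strand: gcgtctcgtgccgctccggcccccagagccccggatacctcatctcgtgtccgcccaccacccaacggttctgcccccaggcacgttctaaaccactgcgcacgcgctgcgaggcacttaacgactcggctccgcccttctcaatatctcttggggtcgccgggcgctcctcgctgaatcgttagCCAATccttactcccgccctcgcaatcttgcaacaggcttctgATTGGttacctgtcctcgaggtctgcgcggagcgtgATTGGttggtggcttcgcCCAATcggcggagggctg
Spc25, chr2:69206164-69206463, minus strand: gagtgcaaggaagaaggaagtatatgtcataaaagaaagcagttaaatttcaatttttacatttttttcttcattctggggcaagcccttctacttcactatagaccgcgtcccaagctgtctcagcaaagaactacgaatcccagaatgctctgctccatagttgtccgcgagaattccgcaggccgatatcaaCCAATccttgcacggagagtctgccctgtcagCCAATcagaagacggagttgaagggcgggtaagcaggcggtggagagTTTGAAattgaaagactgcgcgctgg
Kpna2, chr11:106999476-106999775, minus strand: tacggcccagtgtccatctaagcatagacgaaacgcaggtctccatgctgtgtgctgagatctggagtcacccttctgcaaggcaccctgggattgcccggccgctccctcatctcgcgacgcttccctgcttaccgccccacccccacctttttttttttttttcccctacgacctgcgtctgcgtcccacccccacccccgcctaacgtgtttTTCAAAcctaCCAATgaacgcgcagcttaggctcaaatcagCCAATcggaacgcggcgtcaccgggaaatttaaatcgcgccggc
The Cdk1 window holds all 3 motifs, those of Spc25 and Kpna2 hold TTTGAA and CCAAT, and that of Cks2 holds CCAAT alone. Of the 38 mitosis genes, 32 had an entry, with 35 promoters between them. TTTGAA stood in 80% of these promoters, against 17.9% of all 32851 promoters, and CCAAT in 80% against 37.4%, while E2F forms stood in 5.71% against 2.26%. Of the 36 replication genes 30 had an entry. TTTGAA stood in 11.4% of their 35 promoters, CCAAT in 57.1% and an E2F form in 31.4%. These are counts of letters in a window, and no occupancy was measured.

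Kpna2, an importin that carries proteins into the nucleus and is itself high in dividing cells, had signals of 2632, 2282 and 2627 with vehicle and 4018, 3550 and 4493 with CNP. It rose by 0.67 ± 0.12 and was called only with the block (1.59-fold, adjusted p = 0.0581, blocked adjusted p = 0.0447). Of 20 nuclear import and export genes it was the only one called (0.0453% of genes with the block). The median was 0.08, and its sign changed without vehicle replicate 2 or vehicle replicate 3 (-0.005 and -0.018). Kpna6, another importin, lay lower with CNP (541, 557 and 593 against 319, 467 and 437), and Xpot, the tRNA exporter, overlapped (-0.44 ± 0.16).

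Of 76 mitochondrial ribosomal protein genes Mrpl47 was the only one called, and only with the block (0.0453% of genes called higher). In 20 of 76 (26.3%, against 7.56% of genes) the CNP arrays lay above all vehicle arrays and in 1 below (7.28% of genes), with a median of 0.25. Mrpl22 had signals of 872, 662 and 717 with vehicle and 1584, 905 and 1284 with CNP (0.71 ± 0.20), Mrpl1 had 317, 280.3 and 279.9 against 652, 336 and 501 (0.69 ± 0.20), and Mrpl33 differed by 0.74 ± 0.23 with overlapping groups. The median was 0.27, 0.10 and 0.34 in pairs 2, 3 and 4, and 0.045 over all pairs when the array with the conflicting field was counted as CNP. Of 45 cytosolic ribosomal protein genes none was called by its brightest singly named probe set, and the median was 0.07. In 9 the CNP arrays lay above all vehicle arrays (7.56% of genes) and in 0 below (7.28% of genes). A probe set named for both Rps21 and Gm5963, and so not used for the list, was called higher with the block. It rose by 0.74 ± 0.16 without overlap (adjusted p = 0.0991, blocked adjusted p = 0.0477). Rpl37 differed by 0.69 ± 0.16 (signals of 1614, 1712 and 1218 against 2689, 2207 and 2406), and Rpl10a differed by 0.23 ± 0.06. Several of these genes have near-identical copies, and their probe sets may read more than 1.

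No cartilage matrix gene was called. All 7 cartilage collagens had differences below 0 (median -0.27), with overlapping groups. Col2a1, the main collagen of cartilage, had signals of 5610, 8479 and 9078 with vehicle and 5129, 6890 and 5984 with CNP (-0.34 ± 0.17, adjusted p = 0.443). Col9a2, which coats collagen II fibrils, differed by -0.70 ± 0.29 and Col11a2 by -0.58 ± 0.23. Of 24 matrix protein genes, 20 had differences below 0 (median -0.22). In 4 (16.7%, against 7.28% of genes) the CNP arrays lay below all vehicle arrays and in 1 above (4.17%, against 7.56%). Acan, the large proteoglycan aggrecan, had 4295, 6398 and 6586 against 5216, 5460.0 and 4238 (-0.19 ± 0.16, adjusted p = 0.665). Fn1, fibronectin, had 3325, 3514 and 4242 against 2549.7, 2541 and 2211 (-0.59 ± 0.12, adjusted p = 0.0795, blocked adjusted p = 0.0879). Chad, chondroadherin, had 1588, 1976 and 1744 against 1034, 1339.9 and 736 (-0.80 ± 0.28, blocked adjusted p = 0.147). In the pair of replicate 3 the median of the matrix proteins was -0.08, against -0.24 and -0.47 in pairs 2 and 4.

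Sox9, the transcription factor that sets the chondrocyte fate, had signals of 956, 1723 and 1656 with vehicle and 906, 1393 and 1241 with CNP, and the groups overlapped (-0.26 ± 0.27, adjusted p = 0.751). No SOX factor was called among 7 (median -0.15). Of 30 genes of glycosaminoglycan synthesis none was called, 6 of 30 (7.28% of all genes) had CNP arrays below and 1 above all vehicle arrays, and the median was -0.21. Chst15, which adds sulfate to chondroitin sulfate, had 453, 507 and 330.4 against 131, 446 and 188 and overlapped (-0.87 ± 0.28, blocked adjusted p = 0.12). Chst14, a dermatan sulfotransferase, differed by -0.54 ± 0.17 and Papss2, which makes the sulfate donor, by -0.42 ± 0.15, while Ugp2, which makes UDP-glucose, differed by 0.32 ± 0.12. Of 17 resting and articular-side genes none was called, 3 had CNP arrays below all vehicle arrays (7.28% of genes) and 1 above (7.56%). Frzb, a WNT antagonist of early chondrocytes, had 3865, 4072 and 4425 against 1079.8, 3693 and 2239 (-0.98 ± 0.28, blocked adjusted p = 0.111). Dlk1, a membrane inhibitor of differentiation, had 1010, 996 and 1534 against 739, 862 and 541 (-0.71 ± 0.22).

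The prehypertrophic and hypertrophic list had 21 measured genes, of which 6 (28.6%, against 7.28% of genes) had CNP arrays below and 1 above all vehicle arrays (median -0.24). None was called by its brightest probe set; the call of Mef2c came from another. Pth1r, the receptor for parathyroid hormone-related peptide, had signals of 1192, 1308 and 1389 with vehicle and 353, 766 and 1155 with CNP (-0.91 ± 0.27, blocked adjusted p = 0.105). Foxa2, a transcription factor of hypertrophy, had 319.5, 310.1 and 339 against 109, 234 and 146 (-0.98 ± 0.35). Wnt4 had 343, 569 and 344 against 71.6, 318 and 320.1 (-0.98 ± 0.39), and Fgfr1 had 673, 924 and 1021 against 569.8, 507 and 448 (-0.75 ± 0.26). Of the 21 genes 4 had differences above 0, among them Ihh, with 313, 188 and 199 against 282, 244 and 318 (0.28 ± 0.24), and Col10a1 differed by -0.48 ± 0.44, so neither was distinguishable from its replicate spread. The median of the list was -0.37, -0.06 and 0.00 in pairs 2, 3 and 4.

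Of 15 mineralization and osteoblast genes, Ibsp was called (0.0226% of genes were called lower without a block) and Smpd3 with the block (0.151%). In 5 of 15 (33.3%, against 7.28% of genes) the CNP arrays lay below all vehicle arrays and in 1 above (7.56% of genes), with a median of -0.26 (-0.35, -0.20 and -0.37 in the 3 pairs). The summed signal of the list was 35229 to 38127 with vehicle and 28084 to 31129 with CNP, without overlap. The summed signals of osteoclast markers (2882 to 4065 with vehicle and 2764 to 4117 with CNP) overlapped, and so did those of perichondrium, tendon and fibroblast markers (55548 to 63973 and 51608 to 60635). Col1a2, a collagen of bone and fibroblasts, had 9506, 9183 and 10170.0 against 8856, 8392 and 7256 (-0.24 ± 0.08).

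**Figure D4:**
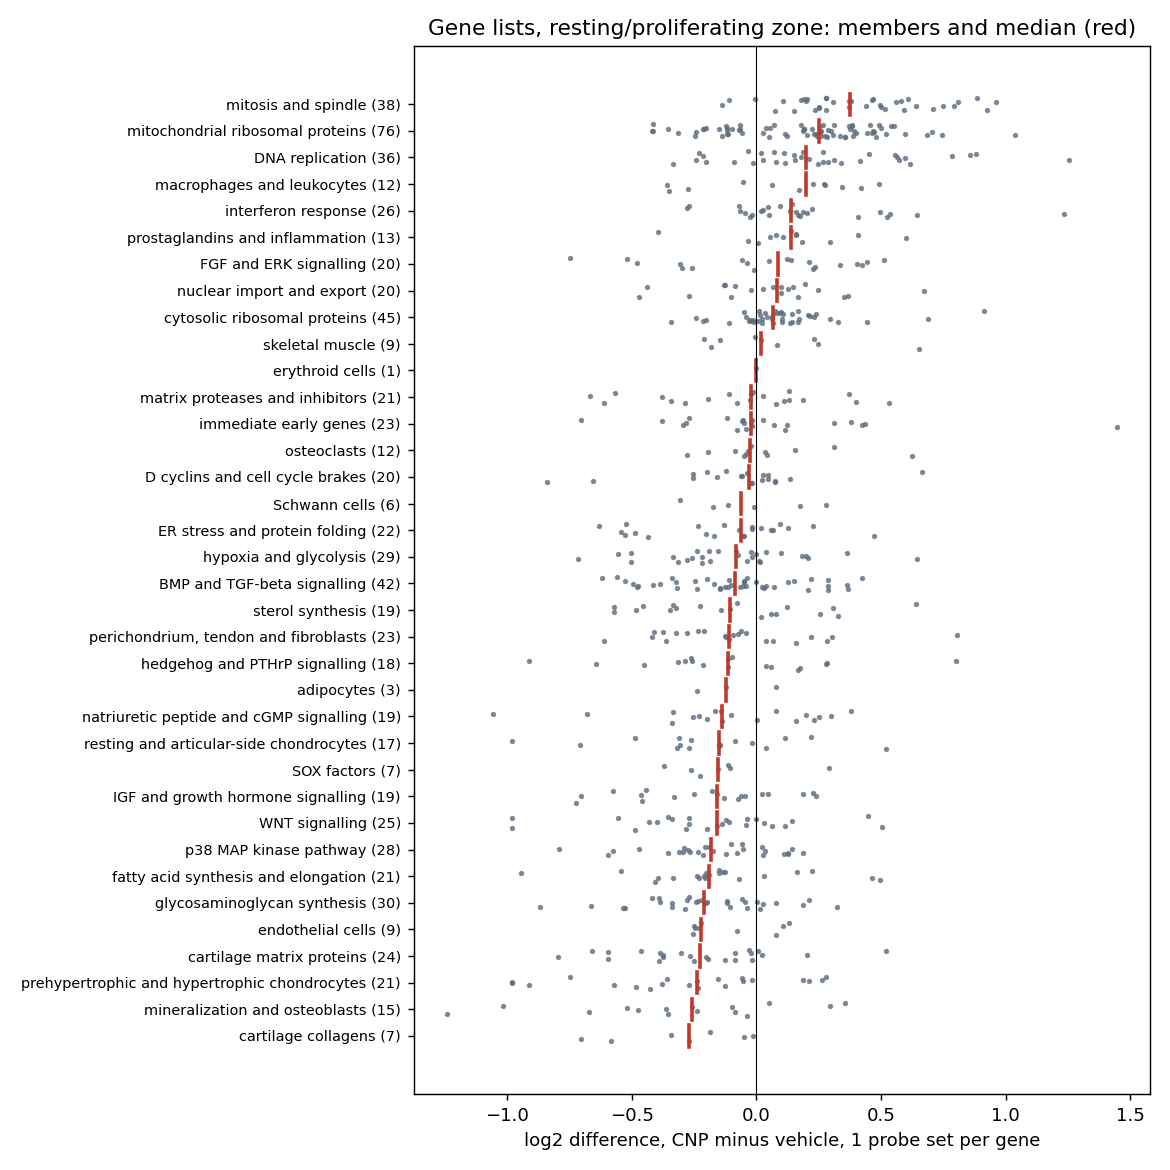
Log2 difference between CNP and vehicle (x axis) of each measured gene of 36 lists, 1 probe set per gene, with the number of genes in brackets and the list median in red, ordered by median. The mitosis list has the highest median (0.38) and the cartilage collagens the lowest (-0.27).

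Apart from the dimmer Prkg1 probe set described above, CNP signalling genes were not called in either fit. Npr2 had signals of 927, 988 and 1193 with vehicle and 692, 816 and 950.3 with CNP (-0.34 ± 0.15, adjusted p = 0.39). Npr3 had 326, 309 and 338 against 369.5, 271 and 237 (-0.16 ± 0.21), and Prkg2, the cyclic GMP kinase of the growth plate, had 958, 799 and 883 against 518, 871 and 1108 (-0.14 ± 0.21). Of 19 measured natriuretic peptide and cyclic GMP genes, 3 (15.8%, against 7.28% of genes) had CNP arrays below all vehicle arrays (median -0.14). In 1 (5.26%, against 7.56% of genes) they lay above. Pde9a, a phosphodiesterase that breaks down cyclic GMP, had 70.5, 85.3 and 127 against 39.3, 17.6 and 59.2 (-1.05 ± 0.28, blocked adjusted p = 0.0962). Nppc, which encodes CNP, was below the signal filter.

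The p38 pathway was called in no member of 28 (median -0.18), and 3 genes (10.7%, against 7.28% of genes) had CNP arrays below and 0 above all vehicle arrays. Mapk14, p38 alpha, had signals of 837, 860.0 and 781 with vehicle and 686, 717 and 651 with CNP (-0.26 ± 0.12, adjusted p = 0.37), without overlap, but a dimmer probe set of the gene differed by 0.36 ± 0.18, also without overlap. Map2k6, a kinase that activates p38, had 204, 167.2 and 223 against 47.0, 166.8 and 144 (-0.79 ± 0.38), and its replicate 3 arrays were almost equal. Of 20 FGF and ERK genes none was called, and the sign of the median (0.09) changed without replicate 2 (-0.05). Fgfr3, the FGF receptor that restrains chondrocyte division, had 3445, 4431 and 3861 against 3253, 4171 and 3861, a difference of -0.06 ± 0.13 with overlapping groups.

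No gene was called among 42 of BMP and TGF-beta signalling (median -0.08), and 5 (11.9%, against 7.28% of genes) had CNP arrays below and 1 above all vehicle arrays. Tgfbr2 had signals of 2727, 3136 and 3139 with vehicle and 2042, 2266 and 1922 with CNP (-0.53 ± 0.11, adjusted p = 0.0764, blocked adjusted p = 0.0719). Tgfbr3 had 1970, 2252 and 2719 against 1634, 1475 and 1362 (-0.62 ± 0.17), and Smad3, which carries the signal to the nucleus, 1175, 1283 and 1234 against 937, 1036 and 697 (-0.48 ± 0.17). No call was made among 25 WNT genes (median -0.16), 18 hedgehog and PTHrP genes (-0.11) or 19 IGF and growth hormone genes (-0.16). Gpc3, a glypican of the hedgehog list, had 1361, 1051 and 1051 against 664, 1015 and 571 (-0.64 ± 0.19). In the IGF list Stat5b, a transcription factor downstream of the growth hormone receptor, had 501, 766 and 682 against 356, 452 and 359 (-0.71 ± 0.19).

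Of the interferon-responsive genes 1 was called, with the block (0.0453% of genes called higher). Ifi47, an interferon-induced GTPase, had signals of 73.2, 49.3 and 98.2 with vehicle and 227, 138 and 214 with CNP. It rose by 1.23 ± 0.22 (2.35-fold, adjusted p = 0.0581, blocked adjusted p = 0.0447). Of 26 genes measured, 5 (19.2%, against 7.56% of genes) had CNP arrays above all vehicle arrays and 0 below (median 0.14). By pair the list median was 0.26, 0.04 and 0.17 in replicates 2, 3 and 4. Ifit1 had 101, 113 and 90.1 against 247, 117 and 158 (0.64 ± 0.24), and Xaf1 had 146, 118 and 132 against 223, 148 and 234 (0.54 ± 0.20). Of 23 immediate early genes none was called (median -0.02). Fosl1, a FOS-family factor, had dim signals of 24.8, 52.8 and 85.8 against 137, 139 and 229 (1.45 ± 0.41, blocked adjusted p = 0.133). Zfp36, which speeds mRNA decay, had 478, 400.2 and 360.05 against 346, 269 and 157 (-0.70 ± 0.25).

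Metabolic and secretory lists held Hacd1 as their only call (0.00755% of genes were called higher without a block). Of 21 genes of fatty acid synthesis, 16 had differences below 0 (median -0.19). Tecr, the last enzyme of very long-chain elongation, differed by -0.94 ± 0.26, with 1227, 3542 and 1203 in the CNP arrays against 3635, 3609 and 2878. The median was -0.10 over 19 sterol synthesis genes and -0.06 over 22 ER stress and folding genes, in which Calr, the chaperone calreticulin, had 4685, 4402 and 4459 against 2972, 3509 and 3187 (-0.49 ± 0.13, blocked adjusted p = 0.0701). Over 29 hypoxia and glycolysis genes the median was -0.08, and P4ha2, a collagen prolyl hydroxylase, had 3369, 3285 and 3421 against 1182, 3401 and 2099 (-0.72 ± 0.25). In Tecr and P4ha2 replicate 3 showed no difference. The medians were -0.02 over 21 matrix proteases and inhibitors and 0.14 over 13 prostaglandin genes. Mmp2, a gelatinase, had 5406, 4534 and 5657 against 3256, 4068 and 2932 (-0.61 ± 0.18, blocked adjusted p = 0.0958).

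Markers of other cells gave no call. The medians were 0.20 over 12 macrophage and leukocyte genes, -0.03 over 12 osteoclast genes, -0.22 over 9 endothelial, -0.06 over 6 Schwann cell, 0.02 over 9 skeletal muscle, -0.12 over 3 adipocyte and -0.11 over 23 perichondrium, tendon and fibroblast genes, and Hba-a1 was the only erythroid gene tested. Summed signals overlapped between treatments in each of these lists. The macrophage sum ran from 1984 to 2630.0 with vehicle and from 1992 to 3592 with CNP, against 17832 to 18790 in the mineralized piece. The skeletal muscle sum, at 3332 to 3768 and 3041 to 3779, was higher than in the other 2 pieces.

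The response was set against that of the neighbouring hypertrophic zone by a test of the difference of the 2 responses, with the culture as a block. It called 45 probe sets (0.167%), 15 with a higher (0.0555%) and 30 with a lower response in the hypertrophic zone (0.111%). Npr3 was called most clearly among the genes named. It differed by -0.16 ± 0.21 here and by 2.73 ± 0.21 in the hypertrophic zone, so that the responses were 2.89 apart (adjusted p = 0.00367). Lipi, which fell here, differed by -0.33 ± 0.29 there (1.5 apart, adjusted p = 0.0398), and Cpm by 0.30 ± 0.28 (1.53 apart, adjusted p = 0.0307). The dim Klf3 and Ighm probe sets were also called (2.21 and 2.50 apart, adjusted p = 0.0436 and 0.00538). In the other direction the responses of Rtp4, an interferon-responsive chaperone of receptors, Egln3, a hypoxia-induced prolyl hydroxylase, and Thy1, a surface protein of fibroblasts, were lower in the hypertrophic zone by 1.69, 1.47 and 1.55 (adjusted p = 0.00559, 0.0233 and 0.0307). Without replicate 3 or replicate 4 limma called no probe set in this test (2324 and 2157 at an unadjusted p under 0.05), and 13 without replicate 2.

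For Ibsp, Ccdc80, Cdk1 and Gmnn the difference between these zones missed the threshold. Ibsp differed by -0.02 ± 0.18 in the hypertrophic and 0.09 ± 0.18 in the mineralized zone, against -1.24 here. The hypertrophic response was 1.22 above the one here (adjusted p = 0.0733). Its second called probe set differed by -0.51 ± 0.17 in the hypertrophic and 0.04 ± 0.17 in the mineralized zone, against -1.03 here. The hypertrophic and resting/proliferating responses of that probe set were 0.52 apart (adjusted p = 0.432). Those of Ccdc80 were 0.56 apart (adjusted p = 0.13), of Cdk1 -0.67 (adjusted p = 0.339) and of Gmnn -1.0 (adjusted p = 0.281). The list medians stood at 0.38 here, 0.07 in the hypertrophic and 0.04 in the mineralized zone for mitosis, at 0.20, -0.05 and 0.01 for DNA replication, and at 0.25, 0.23 and 0.05 for mitochondrial ribosomal proteins. That of mineralization was -0.26, -0.53 and 0.02. Against the mineralized zone limma called 0 probe sets (0%), with 2007 at an unadjusted p under 0.05. Lipi came closest of the genes named (adjusted p = 0.066).

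**Figure D5:**
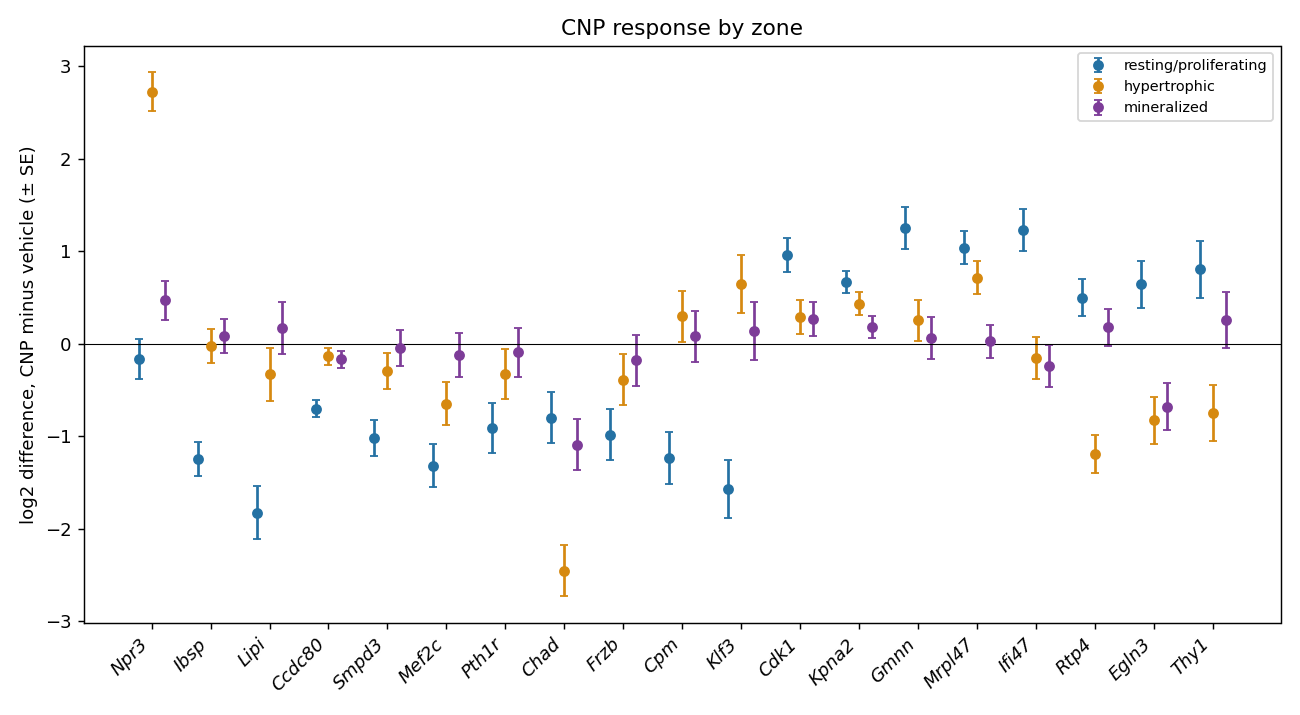
Log2 difference between CNP and vehicle (y axis, ± SE of the fit, n = 3 arrays per group) of 19 genes in the resting/proliferating, hypertrophic and mineralized zone. Npr3 stands at 2.73 in the hypertrophic zone and at -0.16 in the resting/proliferating zone; for Ibsp, Lipi and Gmnn the resting/proliferating value lies farthest from 0.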

How the data were processed

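The deposited values are intensities, 1 linear signal per probe set and array, of 18 Affymetrix MOE430_2 arrays in 6 groups of 3. Per the series' design text the submitters analysed them in GeneSpring 7.2; which software summarised probes is not stated. The deposited intensities were not scaled between arrays: trimmed means ran from 157.8 to 512.3. The number of arrays limits the precision.

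From 45101 rows, 64 controls were removed. Signals were quantile-normalized and log2(signal + 16) was taken. The lowest 40% of probe sets (mean signal under about 63.5) were left out, and 27022 were tested with limma 3.58.1 in R 4.3.3 (moderated tests whose prior variance follows intensity, 6 group means over 18 arrays, Benjamini-Hochberg adjustment). Responses of zones were compared with culture as a block. The fit was tested on simulated data.

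Replicate numbers come from the titles. Deviations from the group means correlated between same-numbered arrays (r = 0.187, 0.378 and 0.154), so the numbers were taken to pair the samples.

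Names are those of the platform annotation, which gave 1 symbol to 34945 probe sets, several to 932 and none to 9160. For lists the brightest singly named probe set stood for each of 13247 genes. Promoters are from RefSeq (GRCm38.p6). The genes named are those called in either fit (with a block, the 15 largest rises and falls), fixed pathway genes, and up to 4 members of each list with the smallest p, plus members needed to describe a list. Members and lists were chosen with earlier results of these data known. Alternatives changed the normalization, pseudocount, filter, block, arrays and grouping of the array with conflicting labels.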

Additional observations from a re-analysis of the deposited data

Results flagged for a closer look

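For 8 of the genes named, the response to CNP differed between the hypertrophic and the resting/proliferating zone by limma's test of the difference of responses. The value given is the hypertrophic minus the resting/proliferating response on the log2 scale. It was 2.89 for Npr3, with a response of -0.16 in the resting/proliferating and 2.73 in the hypertrophic zone. It was 2.50 for the Ighm probe set (-1.39 and 1.11), 2.21 for the dim Klf3 probe set (-1.57 and 0.64), 1.53 for Cpm (-1.23 and 0.30) and 1.5 for Lipi (-1.83 and -0.33). It was -1.69 for Rtp4 (0.50 and -1.19), -1.55 for Thy1 (0.80 and -0.75) and -1.47 for Egln3 (0.65 and -0.83). The adjusted p-values of these differences lay between 0.00367 (Npr3) and 0.0436 (Klf3). No call of this kind was made without replicate 3 or without replicate 4, where 2324 and 2157 probe sets had an unadjusted p under 0.05.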

How the results depend on the processing

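The count of 7 calls moved with most settings. It was 1 with median centring, 0 without normalization (400 at an unadjusted p under 0.05), 3 with a pseudocount of 64, 10 with a pseudocount of 1, 4 without a filter and 28 with the lowest 60% left out. It was 1 without the intensity trend, 8 with the fluidics run as a block, 46 with the hybridization day as a block and 160 within hybridization day 2. The replicate block gave 56 calls, and a replicate block shared over zones 59. The 6 arrays alone gave 0 (2329 at an unadjusted p under 0.05), also with the replicate block (3736). Counting the array with the conflicting field as CNP gave 3. Leaving out 1 array or replicate number gave 0 to 912. After the data were seen, the same was run with the replicate block (0 to 284; 76 without replicate 3, 283 without CNP replicate 3), and without the 4 arrays whose log records an aborted run (0, with 2001 at an unadjusted p under 0.05). The count of responses that differed in the hypertrophic zone was 45, 26 without the culture block, 29 with median centring and 0 to 13 without 1 replicate number; against the mineralized zone limma called 0 in each setting run (1242 to 2081 at an unadjusted p under 0.05). The difference in actin ratio (1.35) ran from 0.95 to 2.1 without 1 array.

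Of 5556 values of 164 named genes under 34 settings, 5215 stayed on the same side of the threshold, most of them called in neither fit. A further 93 lost a call and 248 gained one. Only the 5 genes called in the main fit could lose a call. All 5 lost it with median centring, in the 6 arrays alone, without replicate 2 and without replicate 4. No value called in the main fit or in the alternative changed sign. Signs of values called in neither were not compared. The median of 15 of 36 lists, all between -0.15 and 0.20, changed sign under at least 1 setting; those of mitosis, DNA replication, mitochondrial ribosomal proteins, collagens and mineralization did not. Among genes with dim signals, the difference of Lipi ran from -2.25 to -1.20 and that of Klf3 from -2.57 to -0.78 over the settings.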
